A study of Mus musculus with 4 samples.

Results

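The nuclear pore and nuclear transport genes were followed in intestinal crypts with and without deletion of the beta-catenin gene. The set was defined by gene symbol alone: probe sets with 1 symbol in the platform annotation that named a nucleoporin (Nup and a digit), an importin or exportin (Kpna, Kpnb, Ipo or Xpo and a digit, or Xpot), Ran, Ranbp1, Rangap1, Rcc1, Cse1l, Tnpo1 or Tpr. This gave 117 probe sets for 45 of the 18193 genes measured, and the probe set with the highest mean signal over the 4 arrays stood for each gene. A filter on mean signal kept 43 of the 45 genes and 11395 genes in all. The nucleoporin gene Nup210l and the importin alpha gene Kpna7 were below it, and Tpr was not analysed here.

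The arrays measured mouse crypts cut from the intestine by laser capture microdissection. The control group held 2 samples, and the mutant group held 2 samples in which the beta-catenin gene Ctnnb1 had been deleted by tamoxifen 2 days earlier. All 4 samples went through the same 2 rounds of mRNA amplification. The labels name no Cre driver, allele, strain, age or gut segment for either group, and do not say whether the controls received tamoxifen or whether separate mice gave the samples within a group. A p-value here sets a difference against the spread within the groups of these 4 samples, pooled in part over all probe sets. Part of that spread may be technical, and it may not be the spread between mice.

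The nuclear pore is a ring-shaped channel through the nuclear envelope, built from nucleoporins: scaffold rings shape it, and nucleoporins rich in phenylalanine-glycine (FG) repeats fill its centre. Importins carry proteins with a nuclear localisation signal inward, and exportins carry proteins and RNA outward. Direction is set by the GTPase Ran, which is bound to GTP in the nucleus and to GDP in the cytoplasm. Crypts hold the dividing cells of the gut epithelium, which take their pores apart and rebuild them at each mitosis.

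Signals were compared as log2(intensity + 5) after quantile normalization, called log2 signal here, and a difference is always the mutant mean minus the control mean on that scale. Epithelial markers were high, with mean log2 signals of 11.68 to 11.94 over 7 epithelial genes in the 4 arrays. These genes mark epithelium in general and not crypts alone. Mean log2 signals were 7.14 to 8.75 for crypt base stem cell markers and 10.79 to 11.80 for enterocyte markers. Ctnnb1 itself differed by -0.56 (SE 0.22), and its deleted exons are not named in the labels. Mutant replicate 1 stood apart: its mean log2 signal over 7 pancreatic acinar genes was 12.86 against 3.94 to 4.15 in the other arrays, while its defining epithelial genes were at the level of the others. The main counts are therefore also given without it. For the beta-actin control probe sets, the ratio of 5' to 3' signal ranged from 0.0448 to 0.149. Precision is limited by the number of arrays, and with 2 against 2 an exact permutation test cannot go below a two-sided p of 0.333.

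As a set, transcripts for the pore and its transport factors had lower signals in the mutant crypts. Of the 43 genes, 36 were lower and 7 higher (83.7% lower), where 49.3% of all genes tested were lower; under other scalings Ran, Xpot, Nup62 and Ipo8 changed sign, as given below. The median difference was -0.36, against 0.01 over all genes tested. The outer and inner scaffold rings, the membrane nucleoporin Nup210 and the Ran cycle had median differences of -0.94 to -0.58, whereas importin beta family members and exportins had medians of -0.21 and -0.11. The largest difference among the 43 was that of Nup85, a subunit of the outer ring, at 2.55-fold lower. In bulk samples of this kind, fewer cells of a type and less RNA per cell cannot be told apart.

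No single gene passed the test over all probe sets. By limma, 0 of the 43 genes had an adjusted p under 0.05, as had 0% of all 22519 probe sets tested, and the members' adjusted p ranged from 0.768 to 0.992. At an unadjusted limma p under 0.05, 7 of the 43 genes were lower (16.3%), namely Nup85, Nup133, Nup155, Nup205, Nup54, Nup210 and Kpna2, where 3.62% of all genes tested were. In the other direction 0 of the 43 passed that limit, where 3.32% of all genes did. The members' standard errors ran from 0.21 to 0.47, and in 20 of the 43 genes the standard error was larger than the difference.

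The count at an unadjusted p was lower with any of the 4 arrays left out, in fits that have fewer degrees of freedom and larger standard errors. It was 2 of 43 (Kpna2 and Nup188) without mutant replicate 1, where 3.48% of all genes tested were called, so that it was near that background. It was 4 without mutant replicate 2 (2.60% of all genes), 4 without control replicate 1 (3.26%) and 3 without control replicate 2 (3.43%). Differences without mutant replicate 1 were -0.79 for Nup85, -1.02 for Nup133, -1.02 for Nup155, -0.90 for Nup205, -0.79 for Nup54, -0.75 for Nup210 and -0.83 for Kpna2, all lower as in the full set of arrays. Without mutant replicate 1, 31 of the 43 genes were lower (72.1%, against 5693 of all 11395 genes tested), and the median difference was -0.28. In that fit Kpnb1 stood at 1.33, by a probe set of the kind that can match other transcripts. That fit set 1 mutant array against 2 controls and took the lone array to vary like the others. In each fit with an array left out, the scaling, filter and choice of probe set were still those of all 4 arrays. The count was 1 (Nup85) with the intensities as deposited, where 1.83% of all genes were called, and 1 (Nup85) with median centring, where 1.5% were, both near the background.

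Counting only whether the arrays separated gave the same direction. In 25 of the 43 genes (58.1%) both mutant arrays lay below both control arrays, where 19.2% of all genes tested did so. In 1 gene, Kpna1, both mutant arrays lay above both controls (2.33%), where 18.9% of all genes did. This count depended on the scaling: it was 20 of 43 with the intensities as deposited, where 14.9% of all genes did so, and 11 of 43 with median centring, where 10.1% did. Of the 25 genes, 16 kept the groups apart as deposited and 10 under median centring. Statements below that groups did not overlap hold for quantile normalization. When a difference of at least 1.5-fold was also required, 12 of the 43 genes (27.9%) were lower, where 8.71% of all genes were. These were Nup85, Nup133, Nup43, Nup155, Nup205, Nup188, Nup93, Nup54, Nup210, Kpna2, Cse1l and Rangap1. Under the same rule 0 genes of the set were higher, where 8.53% of all genes were. Without mutant replicate 1, the remaining mutant array lay below both controls in 26 of the 43 genes and above both in 7, where 34.1% and 33.8% of all genes did. With the 1.5-fold limit added, 10 of the 43 were lower, where 14.8% of all genes were.

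**Figure D1:**
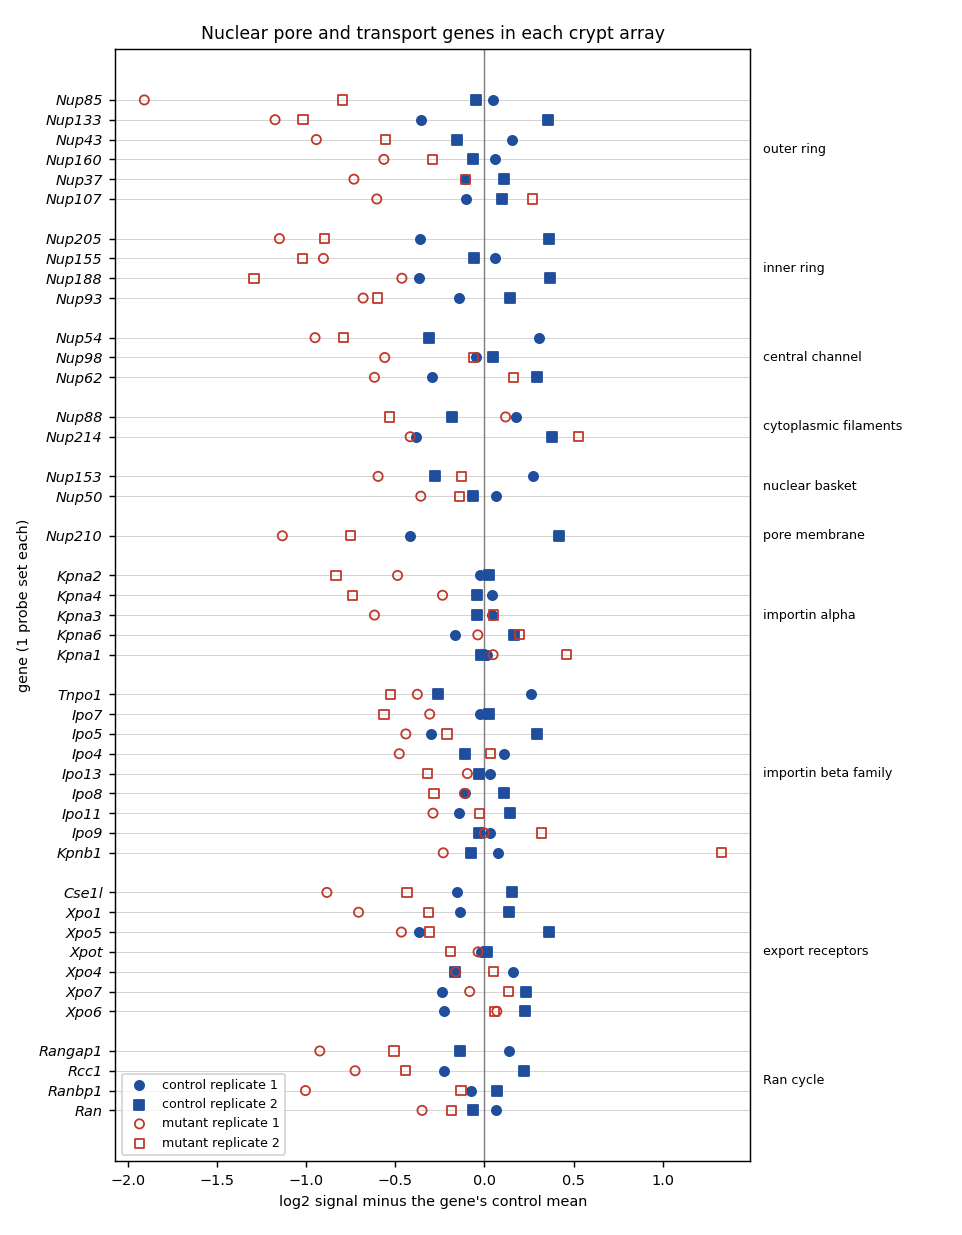
Log2 signal of 43 nuclear pore and transport genes in each of the 4 arrays, shown as the distance from the gene's control mean (x axis, log2) with genes grouped by role (y axis). Filled blue symbols are controls and open red symbols mutants, circles replicate 1 and squares replicate 2. In 25 genes both mutant symbols lie left of both control symbols, under quantile normalization.

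The arrays of a group did not stand level. Over the 43 genes, the median log2 signal of control replicate 1 was 8.85 and that of replicate 2 was 9.06, against 8.23 for mutant replicate 1 and 8.53 for replicate 2. Over all genes tested it lay between 7.39 and 7.46 in every array. On this scale mutant replicate 1 was the lowest of the 4 arrays for the set. It held the lowest value for 27 of the 43 genes and the highest for 0. Mutant replicate 2 was lowest for 10 genes and highest for 7, and it lay below control replicate 1 for 29 genes and below control replicate 2 for 33. Ranks of arrays by log2 signal, here and below, hold for quantile normalization. As deposited, mutant replicate 1 had the largest trimmed mean intensity, 169 against 110 to 130 in the other arrays. Mutant replicate 2 was then the lowest array for most of the 43 genes. Mutant replicate 1 was then the highest for some, Ran and Ipo7 among them.

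How the arrays were scaled moved the size of the difference. With the intensities as deposited 34 of the 43 genes were lower, where 48.9% of all genes tested were, with a median of -0.28. With median centring 32 were lower, where 39.4% of all genes tested were, with a median of -0.16. That scaling moved the median of all genes to 0.13, so relative to all genes the set stood at -0.29. Relative to all genes the value was -0.29 with the intensities as deposited and -0.37 as reported. The sign turned from lower to higher in Ran and Xpot under both of these scalings, and in Nup62 and Ipo8 under median centring. Of the 7 genes that were higher, 0 changed sign.

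**Figure D2:**
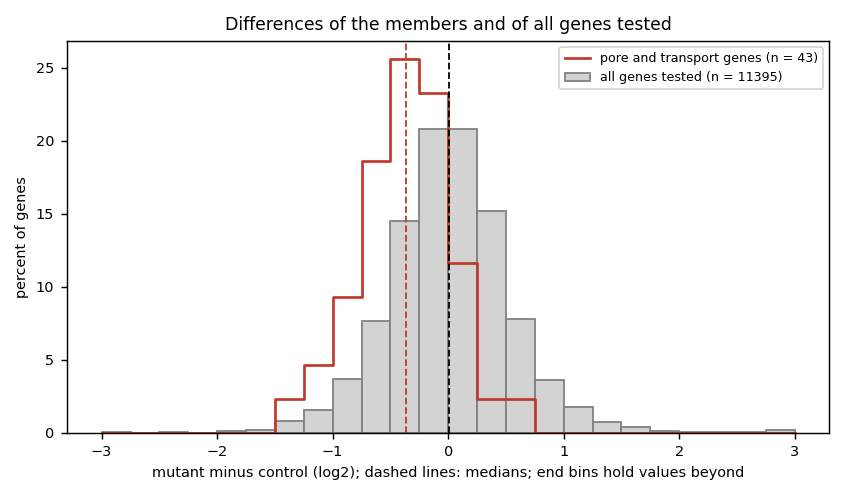
Share of genes (y axis, percent) by mutant minus control difference (x axis, log2, in bins of 0.25) for the 43 nuclear pore and transport genes (red line) and for the 11395 genes tested (grey bars). Dashed lines mark the medians, -0.36 and 0.01, under quantile normalization.

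Promoter sequences were examined because many genes of the set were lower together, and stretches are shown for 4 of the genes that hold a searched motif, chosen from those lower at an unadjusted p and from the Ran cycle. RefSeq windows of 300 bases (250 before to 50 after the start, GRCm38.p6) were matched by gene ID for 36 of the 45 genes, 35 of them above the filter. Short motifs were searched on both strands: CACGTG (an E-box, which reads the same on both strands), TTTCCCGC and TTTGGCGC (E2F), CTTTGAT (TCF/LEF) and GCGCATGC (NRF1), whose match on one strand can overlap a match on the other. CACGTG was found in 7 of the 35 genes (20%): Ipo4, Ipo7, Nup188, Nup54, Nup93, Ran and Xpot. It was in 11.8% of the 9232 genes tested that had a window and in 7.15% of all 32851 windows.

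GCGCATGC was also in 7 of the 35 genes (Nup107, Nup50, Nup62, Ran, Ranbp1, Rcc1 and Xpo5), where 5.96% of the genes tested and 2.71% of all windows held it. TTTCCCGC was in 2 genes, Nup210 and Ranbp1 (2.37% of genes tested, 1.07% of windows), and TTTGGCGC in 0 (1.15% and 0.514%). CTTTGAT was in 2 genes, Ipo9 and Nup88 (3.10% and 3.73%). No test was made of these shares, a match describes letters and not a bound site, and no match says only that the letters are not in the window. Of the 7 genes lower at an unadjusted p under 0.05, 6 had a window, and 1 (Nup54) held CACGTG and 1 (Nup210) TTTCCCGC.

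The stretches below lie wholly before the start site, run 5′ to 3′ on the strand of the gene and have the motif in capitals. The motif begins 100 bases before the start in Nup54 (chr5:92435264-92435329, minus strand), 118 in Ran (chr5:129020008-129020073, plus strand), 76 in Nup210 (chr6:91116865-91116932, minus strand) and 37 in Ranbp1 (chr16:18248695-18248761, minus strand). The positions are those of RefSeq on GRCm38.p6. Nup54 and Nup210 are among the 7 genes above, and Ran and Ranbp1 are of the Ran cycle.
Nup54: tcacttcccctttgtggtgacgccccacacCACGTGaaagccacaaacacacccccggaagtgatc
Ran: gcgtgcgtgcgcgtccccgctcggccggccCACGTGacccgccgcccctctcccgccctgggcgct
Nup210: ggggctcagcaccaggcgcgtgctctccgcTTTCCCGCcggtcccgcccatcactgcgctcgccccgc
Ranbp1: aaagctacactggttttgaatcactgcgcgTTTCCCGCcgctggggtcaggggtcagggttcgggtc

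The outer ring, formed by Y-shaped complexes, had 6 genes above the filter, and all 6 were lower, with a median difference of -0.59. Nup85 had log2 signals of 9.16 and 9.06 in controls and 7.21 and 8.32 in mutants, given here and below as replicate 1 and then replicate 2. Both mutants were below both controls and far from each other. The difference was -1.35 (SE 0.43; limma, unadjusted p = 0.0127, adjusted p = 0.768), and -0.79 without mutant replicate 1.

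Nup133, which anchors the stem of the Y complex, was named for its value after it had been seen. Its log2 signals were 8.56 and 9.28 in controls and 7.75 and 7.90 in mutants, with no overlap, and the difference was -1.10 (SE 0.38). Nup37, a small outer ring subunit, stood at 9.07 and 9.29 in controls and 8.45 and 9.08 in mutants. Here mutant replicate 2 lay level with control replicate 1, so the groups overlapped, and the difference was -0.42 (SE 0.36). Nup43 differed by -0.75 (SE 0.37) and Nup160 by -0.43 (SE 0.35), both without overlap. Nup107 differed by -0.17 (SE 0.40), with mutant replicate 2 the highest of its 4 arrays.

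The inner ring, the scaffold layer that holds the central channel, had 4 genes above the filter. All 4 were lower and in all 4 both mutants lay below both controls, though Nup188 and Nup93 overlapped under median centring, with a median difference of -0.92. Nup155, which links the ring to the membrane, had log2 signals of 8.10 and 7.98 in controls and 7.14 and 7.02 in mutants. Replicates lay close in both groups and the groups were well apart. The difference was -0.96 (SE 0.34; limma, unadjusted p = 0.0223, adjusted p = 0.768), and -1.02 without mutant replicate 1.

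Nup205, a large scaffold subunit, had log2 signals of 9.02 and 9.75 in controls and 8.24 and 8.49 in mutants. Control replicate 2 was the high array, and the difference of -1.02 (SE 0.37) stood at -0.66 without it and -1.38 without control replicate 1. Nup188, the relative of Nup205, differed by -0.88 (SE 0.47), and Nup93, the hub that binds the other inner ring proteins, by -0.64 (SE 0.35).

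Of the FG nucleoporins of the central channel, 3 of 3 were lower, Nup62 only without median centring, with a median difference of -0.31. Nup54, a partner of Nup62 and one of the genes with CACGTG ahead of its start, had log2 signals of 10.06 and 9.45 in controls and 8.80 and 8.97 in mutants. The groups did not overlap, and the difference was -0.87 (SE 0.35; limma, unadjusted p = 0.0352, adjusted p = 0.785). Its brightest probe set is of the kind that can match other transcripts. With such probe sets left out, Nup54 stood at -0.36 (SE 0.35). Nup62, the defining FG protein of the channel, stood at 10.47 and 11.06 in controls and 10.15 and 10.93 in mutants. In both groups replicate 2 was the higher array and the groups overlapped, with a difference of -0.23 (SE 0.36) that was 0.16 without mutant replicate 1 and 0.059 with median centring. Nup98, an FG nucleoporin with a further role at chromatin, differed by -0.31 (SE 0.34).

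The cytoplasmic filaments, where export complexes are taken apart, gave 1 lower and 1 higher gene. Nup88 had log2 signals of 8.60 and 8.24 in controls and 8.54 and 7.89 in mutants, a difference of -0.21 (SE 0.38). Nup214, its binding partner, had 8.32 and 9.09 in controls and 8.29 and 9.23 in mutants, a difference of 0.06 (SE 0.44). In both genes the replicates of a group were further apart than the group means.

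The nuclear basket faces the chromatin, and both of its measured genes were lower. Nup153 had log2 signals of 10.52 and 9.97 in controls and 9.65 and 10.12 in mutants, so that mutant replicate 2 lay between the controls. Its difference was -0.36 (SE 0.34). Nup50, a basket protein that helps release cargo from importin alpha, differed by -0.25 (SE 0.32).

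Nup210, a glycoprotein that spans the pore membrane, had log2 signals of 7.83 and 8.66 in controls and 7.11 and 7.50 in mutants. The groups did not overlap, with control replicate 2 the highest array. The difference was -0.94 (SE 0.41; limma, unadjusted p = 0.0479, adjusted p = 0.789) and -0.52 without control replicate 2. Over all 18 pore proteins, 17 were lower, 12 without overlap, with a median of -0.53. Over the 21 transport receptors, 15 were lower, 9 without overlap, with a median of -0.21. Of all genes tested, 49.3% were lower and 19.2% lower without overlap. The difference between these groups of genes was not tested.

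**Figure D3:**
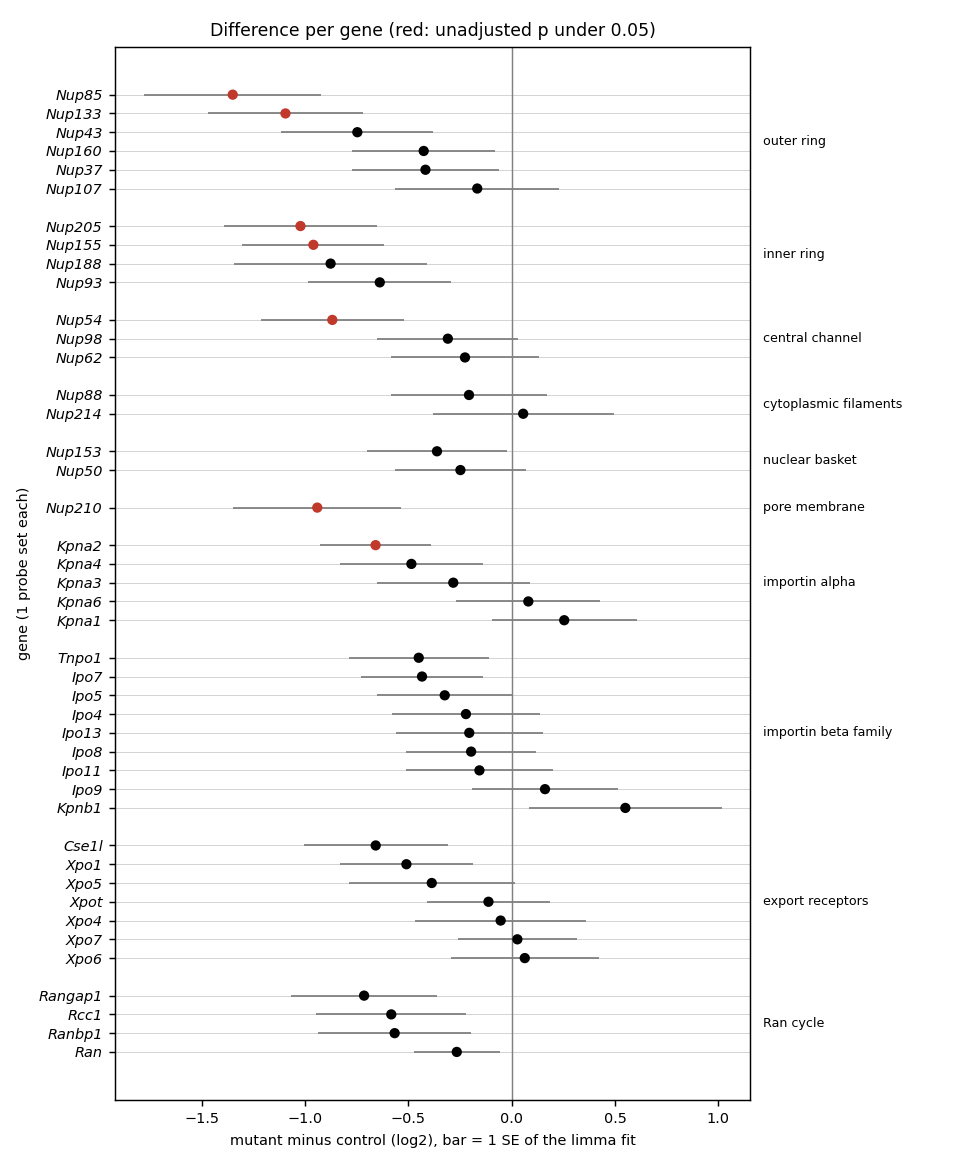
Mutant minus control difference (x axis, log2; points) with 1 SE of the limma fit (bars) for 43 genes grouped by role (y axis), 2 arrays per group. Red points mark the 7 genes with an unadjusted p under 0.05, 6 of them pore proteins and 1 (Kpna2) an importin alpha. Under median centring Ran, Xpot, Nup62 and Ipo8 turned to the right of 0.

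Importin alpha proteins read the nuclear localisation signal and bridge cargo to importin beta. Of 5 genes above the filter, 3 were lower and 2 higher. Kpna2, the importin alpha known for its high level in dividing cells, had log2 signals of 11.40 and 11.45 in controls and 10.94 and 10.60 in mutants. The controls were level and both mutants lay below them, here with mutant replicate 2 the lower. As deposited, the intensities of Kpna2 were 2408 and 2715 in controls and 2541 and 1324 in mutants, which overlap. The difference was -0.66 (SE 0.27; limma, unadjusted p = 0.0372, adjusted p = 0.785), and it was -0.83 when mutant replicate 1 was left out. Kpna4 differed by -0.49 (SE 0.35) and Kpna3 by -0.28 (SE 0.37). Kpna1 and Kpna6 stood at 0.25 (SE 0.35) and 0.08 (SE 0.35).

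Import receptors of the importin beta family bind cargo directly or through importin alpha. Of 9 genes, 7 were lower, Ipo8 only without median centring, 4 of them without overlap, with a median of -0.21. Ipo7, an import receptor for ribosomal proteins and histones among others, had log2 signals of 10.18 and 10.22 in controls and 9.89 and 9.64 in mutants. The groups did not overlap on this scale and the difference was -0.43 (SE 0.30). They did overlap as deposited, with intensities for Ipo7 of 1056 and 1176 in controls and 1238 and 669 in mutants. Tnpo1, which imports RNA-binding proteins, differed by -0.45 (SE 0.34), Ipo5 by -0.32 (SE 0.33), Ipo4 by -0.22 (SE 0.36), Ipo13 by -0.21 (SE 0.35), Ipo8 by -0.20 (SE 0.31), Ipo11 by -0.16 (SE 0.36) and Ipo9 by 0.16 (SE 0.35).

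Kpnb1, the main importin beta, was the exception in size. Its brightest probe set, of the kind that can match other transcripts, had log2 signals of 10.54 and 10.39 in controls, 10.23 in mutant replicate 1 and 11.79 in mutant replicate 2. A single array was high, and the other mutant lay below both controls. The difference of 0.55 (SE 0.47) stood at 1.33 without mutant replicate 1 and -0.23 without mutant replicate 2. Another probe set of the gene had 10.57 and 11.00 in controls and 10.15 and 10.37 in mutants, with no overlap and a difference of -0.53 (SE 0.30). The sign for Kpnb1 therefore differed between its probe sets.

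Of 7 export receptors, 5 were lower under quantile normalization, Xpot not under the other scalings, 3 of them without overlap, with a median of -0.11. Cse1l, which returns importin alpha to the cytoplasm, had log2 signals of 8.96 and 9.27 in controls and 8.23 and 8.68 in mutants. The groups did not overlap, and the difference was -0.66 (SE 0.35; limma, unadjusted p = 0.0943, adjusted p = 0.798). Xpo1, the main protein exportin, differed by -0.51 (SE 0.32). Xpo7 stood at 10.67 and 11.14 in controls and 10.82 and 11.04 in mutants, with both mutants between the controls and a difference of 0.03 (SE 0.29). Xpo5, which exports microRNA precursors, differed by -0.39 (SE 0.40), the tRNA exportin gene Xpot by -0.11 (SE 0.30), Xpo4 by -0.05 (SE 0.41) and Xpo6 by 0.06 (SE 0.36).

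The Ran cycle had 4 genes, and in all 4 both mutants lay below both controls under quantile normalization, with a median of -0.58. The groups overlapped in Ran as deposited, and in Ran, Rcc1 and Ranbp1 under median centring. Rangap1, which makes Ran hydrolyse GTP in the cytoplasm, had log2 signals of 8.85 and 8.58 in controls and 7.79 and 8.21 in mutants. The difference was -0.71 (SE 0.35; limma, unadjusted p = 0.0759, adjusted p = 0.789). Rcc1, the chromatin-bound factor that loads Ran with GTP, had 7.87 and 8.32 in controls and 7.37 and 7.65 in mutants, a difference of -0.58 (SE 0.36).

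Ranbp1, a cytoplasmic partner of Ran that assists GTP hydrolysis, stood at 9.88 and 10.03 in controls and 8.95 and 9.82 in mutants. Mutant replicate 2 lay next to the controls, and the difference of -0.57 (SE 0.37) was -0.13 without mutant replicate 1. Ran itself had log2 signals of 12.79 and 12.66 in controls and 12.38 and 12.54 in mutants, a difference of -0.27 (SE 0.21). As deposited, the intensities of Ran were 5700 and 6475 in controls and 6525 and 6013 in mutants, which overlap, so the order of the groups came from the scaling: Ran stood at 0.044 with the intensities as deposited and 0.16 with median centring.

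The brightest probe set was not the only measure of many genes. Over all 88 probe sets of the set above the filter, 67 were lower (76.1%), where 50.2% of all probe sets tested were. Probe sets of a gene share the same RNA and are not replicates. Of 28 genes with more than 1 probe set above the filter, 13 had every one lower, 0 had every one higher and 15 were mixed. The same share over all genes was not computed, so these counts have no background to be read against.

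Several genes of the scaffold and Ran had every probe set lower under quantile normalization. Nup133 had a further probe set at -1.14 (SE 0.37), Nup85 at -0.84 (SE 0.37) and Nup155 at -0.28 (SE 0.44). All 4 probe sets of Nup54 were lower, from -0.87 to -0.36. For Nup62 the 3 dimmer probe sets stood at -0.82 (SE 0.33), -0.85 (SE 0.35) and -0.57 (SE 0.43), each a larger difference than that of the brightest. All 5 probe sets of Ran were lower, from -0.66 to -0.27, of which 4 carry the suffix for probes that can match other transcripts. Xpo1 had a further probe set with 9.63 and 9.54 in controls and 8.69 and 8.31 in mutants, a difference of -1.09 (SE 0.33; limma, unadjusted p = 0.0103, adjusted p = 0.768).

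Other genes were split. The brightest Rangap1 probe set was lower, and another stood at 0.19 (SE 0.40). Tnpo1 had a second probe set at 0.42 (SE 0.47), and Nup214 one at -1.26 (SE 0.83) that rested on a low value in mutant replicate 1. The 2 other Ipo9 probe sets, at -0.28 (SE 0.36) and -0.60 (SE 0.40), were lower where its brightest was not. Leaving out probe sets with the suffixes _s_at and _x_at, which can match several transcripts, left 42 genes, 35 of them lower, with a median of -0.40.

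**Figure D4:**
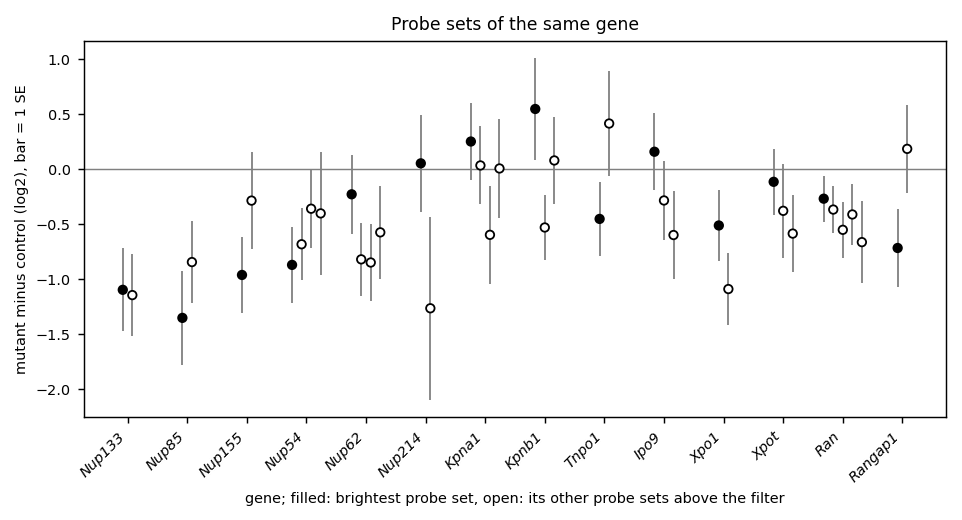
Mutant minus control difference (y axis, log2) with 1 SE (bars) for every probe set above the filter of 14 genes (x axis); filled points are the brightest probe set of a gene and open points its others, from brighter to dimmer. All 5 Ran probe sets lie below 0 under quantile normalization, and the probe sets of Kpnb1, Tnpo1, Nup214, Kpna1, Ipo9 and Rangap1 lie on both sides of it.

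Genes of the same machinery that the symbols above do not cover included further nucleoporins, mRNA export factors and lamins. Of 35 measured, 34 were above the filter, of which 27 were lower and 7 higher, where 49.3% of all genes tested were lower. The median difference of the 34 was -0.31. By limma 0 had an adjusted p under 0.05, and 2 were lower and 0 higher at an unadjusted p under 0.05, where 3.62% and 3.32% of all genes were. In 10 of the 34 both mutants lay below both controls, where 19.2% of all genes did. Without mutant replicate 1, 20 of the 34 were lower (58.8%), with a median of -0.12, where 50% of all genes tested were lower, with a median of 0.00068. Whether these genes differed from the 43 was not tested. The 4 with the smallest p were Thoc1, Snupn, Rcc2 and Nxt1. Thoc1, a subunit of the THO complex that couples transcription to mRNA export, had 9.40 and 8.99 in controls and 8.22 and 7.88 in mutants, a difference of -1.15 (SE 0.35). Snupn, the import adaptor of spliceosomal snRNPs, differed by -1.36 (SE 0.55). Rcc2, a relative of Rcc1, differed by -0.93 (SE 0.43) and the mRNA export cofactor gene Nxt1 by -0.70 (SE 0.34).

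Proliferation genes differed in the same direction as the set. All 9 measured markers of dividing cells were lower, with a median difference of -1.13. Their mean log2 signal was 10.04 and 10.50 in controls and 8.93 and 9.21 in mutants. Under quantile normalization this was the same order of arrays as for the pore and transport genes. All 5 crypt base stem cell markers were lower as well, with a median of -1.19, while the 5 goblet cell markers were higher, with a median of 0.54. Of the Paneth cell markers 4 of 5 were lower, with a median of -0.24. Of the enterocyte markers 2 were lower and 4 higher, with a median of 0.11. Their mean log2 signals were 11.64 and 10.80 in controls and 11.80 and 10.79 in mutants, so replicate 1 was the higher array in both groups. Of the stromal and muscle markers above the filter 5 of 6 were higher, with a median of 0.13. Over 7 genes, with Des, which was below the filter, mean log2 signals were 7.56 and 8.01 in controls and 8.12 and 8.25 in mutants. Des alone stood at 4.11 and 3.71 in controls and 5.54 and 5.66 in mutants. In Acta2, Col1a2 and Col3a1 control replicate 2 was the highest array, and in Col1a1 and Myh11 mutant replicate 2 was. Of the immune cell markers above the filter 4 of 5 were higher, with a median of 0.50, Cd3e at 1.30 (SE 0.61) and Cd74 at 1.1 (SE 0.37) among them. Cd3e stood at 5.05 and 3.38 in controls and 5.68 and 5.37 in mutants. The lower gene was Cd3g, at -0.37 (SE 0.84), with mutant replicate 2 its lowest array. Over 6 genes, with Cd79a, which was below the filter, mean log2 signals were 6.54 and 5.87 in controls and 7.13 and 6.44 in mutants. The part of proliferation and of these cell types in the difference of the pore and transport genes was not tested.

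Across the processing choices tried, the median of the set stayed below that of all genes. It ranged from -0.48 without mutant replicate 2 to -0.16 with median centring.

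**Figure D5:**
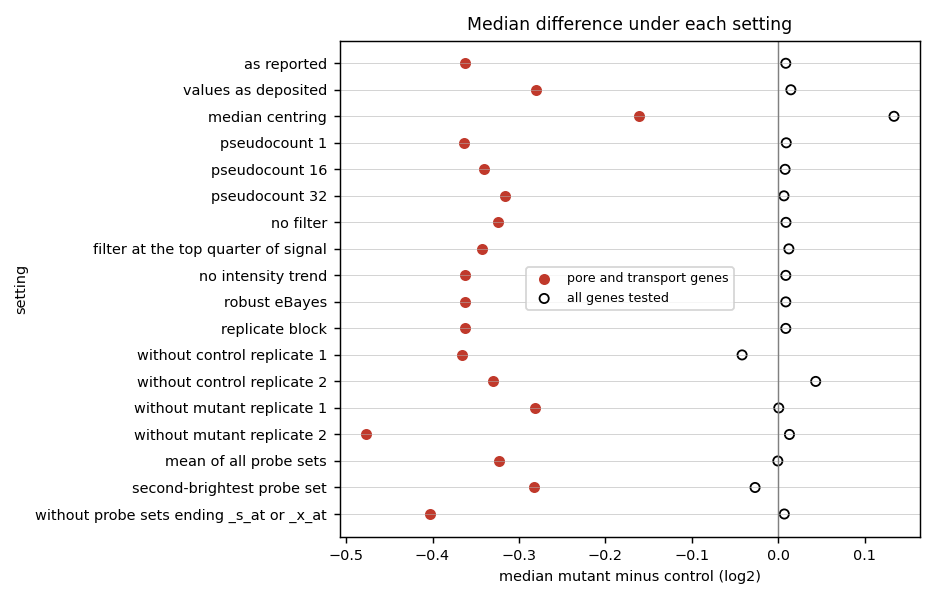
Median mutant minus control difference (x axis, log2) of the nuclear pore and transport genes (filled) and of all genes tested (open) under each processing setting (y axis). The filled point lies left of the open one in every setting shown, and the smallest size, -0.16, is that of median centring.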

How the data were processed

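The study's 4 mouse crypt arrays were used. Each deposited value is the linear intensity of a probe set, computed by MAS5 (per the submitters' processing notes), whose version and scaling target no source used here gives. The table held 45101 probe sets, of which 64 control probe sets were left out; 34945 had 1 gene symbol. Values were taken as log2(intensity + 5), where 5 is the rounded 20th percentile. Trimmed means (2%) of the deposited intensities differed by up to 1.53-fold, beyond a limit of 10%, so arrays were quantile normalized. Probe sets at or above the median of mean log2 signal (4.79) were kept, 22519 in all.

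Groups were compared with limma 3.58.1 (R 4.3.3; lmFit, eBayes with an intensity trend, two-sided, Benjamini-Hochberg over all kept probe sets), with 2 residual and 6.40 prior degrees of freedom; the script was checked on simulated data. Genes given with the value in every array were, in each role, the one with the smallest p and the one with the highest mean signal, the Ran cycle, and members opposite in sign to most by at least 0.5. Of the further genes, the 4 with the smallest p were named. Lists are described by counts and medians, with no set test. The members and lists were chosen with earlier results of these data known. Alternatives changed scaling, pseudocount, filter, variance model, replicate block, arrays and probe sets. Protein sequences were not used here.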

Additional observations from a re-analysis of the deposited data

How the results depend on the processing

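The median difference and the count of lower genes kept their direction under every alternative tried. As reported, 7 genes were lower at an unadjusted p under 0.05 and 12 without overlap by at least 1.5-fold. With the intensities as deposited the first count was 1 (1.83% of all genes tested), and Ran stood at 0.044. Median centring gave 1 and 7, a median of -0.16, and 0.059 for Nup62 and 0.16 for Ran. Both mutants lay below both controls in 25 genes as reported, 20 as deposited and 11 with median centring. Without an intensity trend the first count was 4 (3.14% of all genes). The mean of all probe sets gave 4 (3.21% of all genes), with Nup205 at 0.21, Nup214 at -0.60 and Xpo7 at -0.13. The second-brightest probe set, available for 28 genes, gave 3 (3.65% of all genes) and 6 (9.85%), with 20 genes lower (52.4% of all genes). It put Ipo7 at 0.022, Kpnb1 at -0.53, Nup214 at -1.26, Rangap1 at 0.19 and Xpo7 at -0.040. Leaving out probe sets ending in _s_at or _x_at, chosen after seeing the data, put Kpnb1 at -0.53, Rangap1 at 0.19, Nup54 at -0.36 and Nup62 at -0.82. The first count was again 7 (3.48% of all genes tested), with Nup62 called and Nup54 not. With an array left out the first count ranged from 2 to 4, and values from -0.42 to 0.53 for Nup214, -0.21 to 0.26 for Xpo7, -0.62 to 0.16 for Nup62, -0.23 to 1.33 for Kpnb1 and -0.53 to 0.12 for Nup88. The cause of these changes was not tested. With the replicate block the counts were 7 and 12, where 4.20% and 8.71% of all genes tested were called. Over all kept probe sets, same-numbered samples did not deviate together (correlation 0.03). The beta-actin ratio of 5' to 3' signal was higher in both replicate 1 arrays (0.149 and 0.0945) than in both replicate 2 arrays (0.0567 and 0.0448). Whether the numbers stand for a shared factor was not tested. No member passed the adjusted limma test under any setting, while over all probe sets 0 passed as reported, 102 with median centring, 85 without mutant replicate 2, 19 without mutant replicate 1, 2 as deposited and 1 with the block.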
